A study of Homo sapiens with 2 samples.

Results

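The MYC and MAX network is the set of 10 genes MYC, MYCN, MYCL, MAX, MNT, MLX, MXI1, MXD1, MXD3 and MXD4, taken by gene name from the GENCODE 44 annotation of hg38. They are 10 of the 20033 protein-coding genes on chromosomes 1 to 22, X and Y. For each of them the NUDT21 peaks at its transcript starts, along its body and just past its end were collected. NUDT21 is a subunit of the cleavage factor that helps to choose where a pre-mRNA is cut and polyadenylated. Its chromatin occupancy was profiled by CUT&Tag, which tethers a transposase to an antibody on chromatin and sequences the DNA fragments that it releases. The material was 1 group of 2 independent biological replicates of J.gamma1, a human line established from T-cell acute lymphoblastic leukemia (T-ALL), with no treatment named in the labels. The line is a single cell line, and no sample with another antibody was analysed here, so there is no contrast between conditions and every value below describes this group.

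The proteins of the network share a basic helix-loop-helix leucine zipper, the fold through which they pair and touch DNA. MAX is the common partner: paired with MYC, MYCN or MYCL it binds the E-box CACGTG and promotes transcription, and paired with an MXD protein, MXI1 or MNT it binds the same letters and brings in corepressors. MLX is a parallel partner that joins the glucose-sensing proteins MLXIP and MLXIPL as well as MNT and some MXD proteins. In T-ALL, MYC is a well-known driver downstream of NOTCH1 signalling, and the balance between MYC and its MAX-bound antagonists is a long-standing theme of growth control.

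Peaks were called promoter peaks if they came within 3000 bp of at least 1 of the gene's annotated transcript starts, measured from the nearer edge. A gene-body peak lay over the gene but not at a promoter, and a gene-end peak lay at least in part within 1000 bp past the gene's last base. The fold is the height of a peak at its summit over the background of the peak caller, and the percentile of a peak is the percentage of peaks in the same list with a lower fold. Replicate 1 had 97162 peaks with a median fold of 3.97, and replicate 2 had 68532 peaks with a median fold of 4.23. The fragments recovered at a summit had a median of 29 in replicate 1 and 19 in replicate 2. Because the lists differ in this way, folds were ranked within each list. Fragment numbers carry 95% exact Poisson intervals, which cover counting error only, and total read depth is unknown. The background level recovered beside them is called the control level.

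The E-box CACGTG reads the same on both strands. It is shown here because 6 of the 9 members that had promoter peaks in both replicates held it somewhere in their strongest promoter peak in each replicate. Each site below is 30 bases of hg38 on the strand of its gene, 5′ to 3′, with the E-box in capitals.

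MAX, chr14:65102849-65102878, minus strand: tccagctccctcCACGTGtcctgtcttccc
MNT, chr17:2401236-2401265, minus strand: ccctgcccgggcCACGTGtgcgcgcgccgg
MLX, chr17:42567038-42567067, plus strand: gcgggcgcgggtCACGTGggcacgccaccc
MXD1, chr2:69914273-69914302, plus strand: ccccgcagcagcCACGTGgcgcctgcccta
MXD3, chr5:177312264-177312293, minus strand: ccccgcggcaccCACGTGcagcggctgggc
MXD4, chr4:2262330-2262359, minus strand: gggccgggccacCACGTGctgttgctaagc

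The MAX site lay closest to a summit in replicate 2, with its E-box 1 bp away. In replicate 1 it was 70 bp from the summit, and the E-boxes of MXD4 (52 bp) and MXD3 (65 bp) lay closer. In replicate 1 alone, 3 of 10 members had CACGTG within 100 bp, against 5.17% of genes with a promoter peak. In replicate 2 alone it was 1 of 9 against 5.49%. MAX was the 1 member of 9 with CACGTG within 100 bp of the strongest promoter summit in both replicates, where 2.0% of the 11425 genes that had such peaks in both replicates held it. Within 200 bp the count was 2 of 9 (MAX and MXD3) against 5.75%, and over the whole peak 6 of 9 against 20.7%. The strongest peaks of MNT, MXD3, MLX and MXD4 were long, from 2390 bp (MXD4, replicate 1) to 18693 bp (MNT, replicate 1). The median length of all peaks was 630 bp in replicate 1 and 647 bp in replicate 2. The part of peak length in the whole-peak count was not tested. The MXD4 site shown lay in the strongest peak of replicate 1, 52 bp from its summit, while the strongest peak of replicate 2 was another one, with its E-boxes at least 1034 bp from the summit. Both strongest MXD4 peaks therefore count, through different sites.

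The promoter table of RefSeq (GRCh38.p14, 250 bases before to 50 after each start) held 12 promoters of 9 members and none of MYC. CACGTG was found in 3 of them (25%), those of MNT, MLX and MXD4, against 7.26% of all 35116 promoters. The stretches before the start that overlap no annotated exon are given for these 3 and for the MXI1 start that carried a strong peak in 1 replicate only, with CACGTG in capitals.

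MNT, chr17:2401105-2401310, minus strand: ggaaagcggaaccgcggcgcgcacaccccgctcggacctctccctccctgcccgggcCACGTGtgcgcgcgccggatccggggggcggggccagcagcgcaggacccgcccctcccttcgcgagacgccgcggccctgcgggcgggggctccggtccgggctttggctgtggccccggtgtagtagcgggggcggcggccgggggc
MLX, chr17:42566850-42567071, plus strand: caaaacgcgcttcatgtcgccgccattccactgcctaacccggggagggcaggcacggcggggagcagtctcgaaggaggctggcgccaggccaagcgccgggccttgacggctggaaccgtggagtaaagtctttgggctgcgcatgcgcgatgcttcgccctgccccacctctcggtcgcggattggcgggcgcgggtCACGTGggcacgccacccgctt
MXD4, chr4:2262110-2262359, minus strand: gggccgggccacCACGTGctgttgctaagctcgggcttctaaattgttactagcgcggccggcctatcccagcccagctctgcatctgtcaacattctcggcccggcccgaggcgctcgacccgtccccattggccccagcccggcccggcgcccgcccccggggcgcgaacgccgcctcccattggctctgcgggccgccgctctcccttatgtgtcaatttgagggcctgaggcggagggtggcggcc
MXI1, chr10:110225746-110225992, plus strand: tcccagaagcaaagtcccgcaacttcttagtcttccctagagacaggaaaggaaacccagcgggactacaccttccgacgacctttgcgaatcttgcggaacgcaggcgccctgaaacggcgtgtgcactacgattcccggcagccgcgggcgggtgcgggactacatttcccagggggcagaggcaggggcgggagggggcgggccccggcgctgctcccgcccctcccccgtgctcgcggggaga

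These stretches are rich in G and C, as is the sequence under the summits. In the windows of 100 bp on either side of the strongest promoter summit, the members had a median G and C content of 65.2% in replicate 1 and 64.7% in replicate 2, beside 65.2% and 62.7% for all protein-coding genes with such a peak. A match to CACGTG is a description of the letters and was not tested as a binding site.

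To see which genes of the network NUDT21 peaks reached, promoter peaks were counted first. All 10 members had a promoter peak in replicate 1, where 69.8% of protein-coding genes had one. In replicate 2, 9 of the 10 had one against 57.9%, and the same 9 had one in both replicates against 57.0%. MXI1 was the exception, with promoter peaks in replicate 1 only. When the start was limited to that of the canonical transcript, 9 of 10 had a peak within 3000 bp in both replicates against 52.3%. The members have more annotated starts than most genes, with a median of 8.5 against 5.0, and shorter bodies, with a median of 12987.5 bp against 27471 bp.

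Gene-body peaks outside promoters were present in both replicates at 5 of the 10 (MYCL, MAX, MXD1, MXD3 and MXD4), where 28.6% of protein-coding genes had them. The shared body peaks of MAX and MXD3 lie past the ends of their canonical transcripts. At MXD4 the replicate 1 peak that counted here, 2245116 to 2249204, was its gene-end peak, which also lay over the gene. Gene-end peaks were present in both at 2 of 10 (MNT and MXD4), where 20.1% of genes had them. Each peak was then counted once, with gene-end peaks kept apart from gene-body peaks. In total the network held 34 peaks in replicate 1 (24 at promoters, 8 in gene bodies and 2 at gene ends). In replicate 2 it held 28 (18, 8 and 2). Of the 34, 22 (64.7%) touched a peak of replicate 2, beside 55.3% of all replicate 1 peaks. Of the 28, 25 (89.3%) touched a peak of replicate 1, beside 85.9% of all replicate 2 peaks. Folds of the member peaks ranged from 2.57 to 22.98 in the list of replicate 1 and between 2.61 and 12.2 in the other list.

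**Figure D1:**
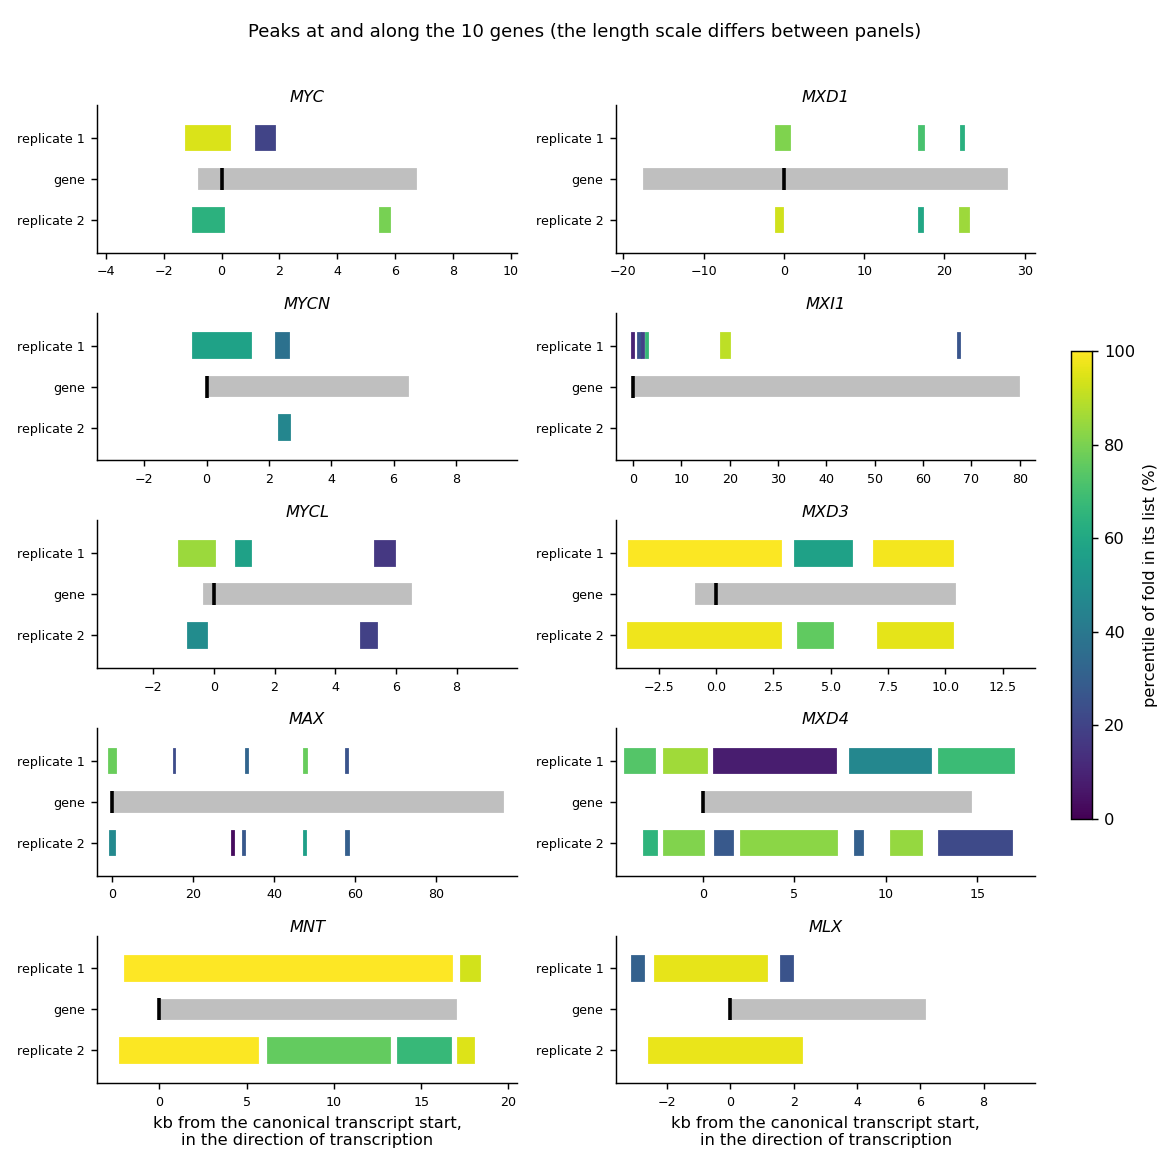
Peaks of each replicate along the 10 genes, with kb from the canonical transcript start on each horizontal axis (in the direction of transcription), a grey bar for the annotated gene, a black tick for the canonical start and colour for the percentile of fold in its own list. The length scale differs between panels: peaks cover 91.5% and 88.7% of MNT and its 3000 bp on either side in replicates 1 and 2, 72.6% and 66.2% at MXD3, 86.9% and 72.4% at MXD4, and MXI1 has no peak in replicate 2.

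The strength of the promoter peaks differed widely within the network. The strongest promoter peak had a median percentile of 87.9 over the 10 members in replicate 1 and of 82.7 over 9 members in replicate 2, beside 82.2 and 77.9 for all protein-coding genes with one. By the mean of both replicates the order was MNT, MXD3, MLX, MYC, MXD1, MXD4, MYCL, MAX and MYCN. The first 3 stood at 99.6 ± 0.450, 98.5 ± 1.504 and 96.5 ± 0.309 (SD, n = 2), the next 3 between 84.2 and 86.9, and the last 3 between 51.7 and 66.6. Over the 11425 genes for which both replicates gave a promoter peak, the difference between the replicates had an SD of 20.2 percentile points, which gives an SD of 14.3 for the difference between the means of 2 genes. Among neighbours in the order, the gap between MXD4 and MYCL (17.6 points) exceeded this spread. The other gaps, between 0.241 and 10.3 points, did not. The spread is pooled over genes of all levels, and the size of the difference varied widely. It had a median of 8.25 and a 95th percentile of 51.9 points over these genes. It was between 0.437 and 2.13 points at MNT, MXD3 and MLX and 36.6 points at MYCL, so 1 spread does not suit every gap. The MAX-bound repressors MNT, MXD3, MXD1 and MXD4 took places 1, 2, 5 and 6, and MXI1 had no place for lack of a replicate 2 peak. The 3 MYC genes took places 4, 7 and 9, MLX place 3 and MAX place 8.

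**Figure D2:**
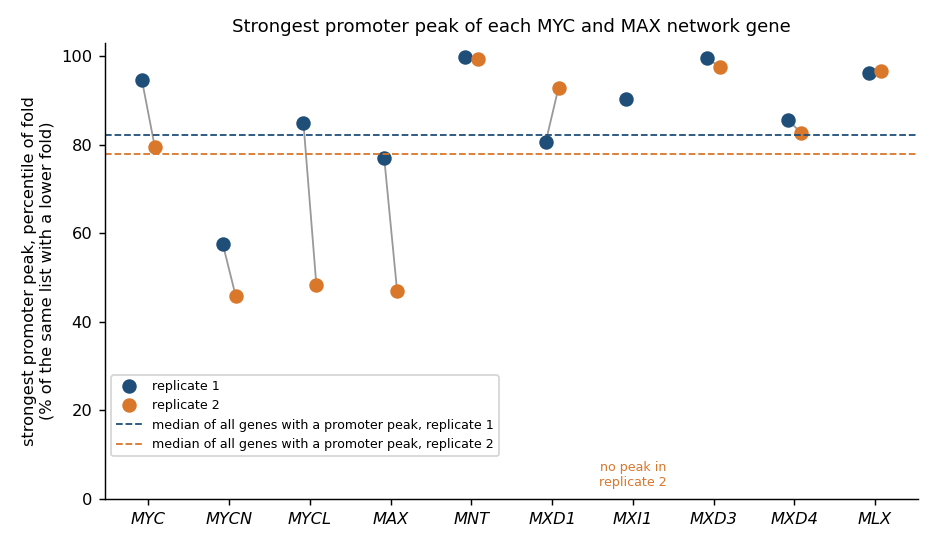
Percentile of fold of the strongest promoter peak of each member in replicate 1 (blue) and replicate 2 (orange), with grey lines joining the replicates and dashed lines for the medians of all protein-coding genes with a promoter peak (82.2 and 77.9). MNT, MXD3 and MLX lie above 96 in both replicates, MYCN, MYCL and MAX fall below 50 in replicate 2, and MXI1 has a point for replicate 1 only.

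**Figure D3:**
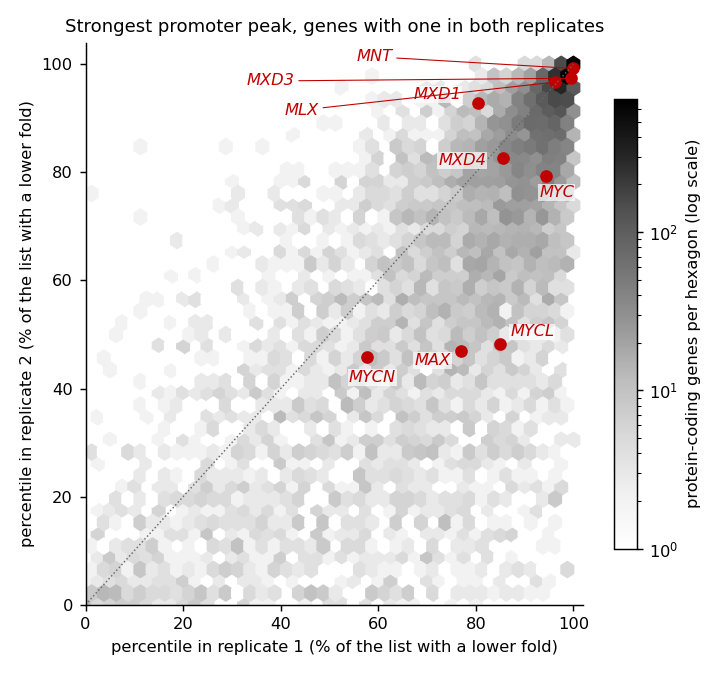
Strongest promoter peak of the 11425 genes for which both replicates gave one, as the percentile in replicate 1 (horizontal) against that in replicate 2 (vertical), with grey hexagons for the number of genes and red points for 9 members. MYCL and MAX lie below the diagonal by 36.6 and 30.04 points, MXD1 lies above it by 12.4 points, and MNT, MXD3 and MLX sit in the dense corner at the top.

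MYC (ENSG00000136997.22) lies on chromosome 8 from 127735434 to 127742951 on the plus strand and encodes the transcription factor that drives ribosome production, metabolism and cell cycle entry. Its 5′ end was covered by a peak in both replicates. In replicate 1 this peak ran from 127735008 to 127736522, with its summit 172 bp before the canonical start, a fold of 7.89, a percentile of 94.5 and 76 fragments (59.9 to 95.1) over a control level of 8.0. In replicate 2 it ran from 127735241 to 127736316, with a fold of 4.72, a percentile of 63.7 and 25 fragments (16.2 to 36.9) over 4.51. The same 5′ end was thus among the upper peaks of replicate 1 and a middling one of replicate 2, a difference of 30.8 points, and 18.1% of the 10475 genes with a peak at the canonical start in both replicates differed by as much. The antisense non-coding gene CASC11 also overlaps this end, and CUT&Tag does not tell strands apart.

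The strongest MYC promoter peak of replicate 2 by the rule was a different one. It ran from 127741729 to 127742062 in the 3′ UTR, 1085 bp before the gene's end, and counted as a promoter peak because a short MYC transcript is annotated to start at 127739073, 2793 bp from its summit. Its fold was 5.58 and its percentile 79.4, on 17 fragments (9.90 to 27.2) over a control level of 2.23, and no replicate 1 peak touched it. With it MYC stood at 86.9 ± 10.7 (SD, n = 2), above 58.6% of those 11425 genes. With the canonical start alone MYC stood at 79.1 ± 21.7. A further peak of replicate 1 at 127737436 to 127738074 had a fold of 3.04, a percentile of 20.2 and no partner in replicate 2.

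MYCN (ENSG00000134323.13, chromosome 2, 15940550 to 15947007, plus strand) encodes the MYC paralogue best known from the nervous system and neuroblastoma. It had the lowest mean percentile of the 9 members, 51.7 ± 8.30 (SD, n = 2), and 21.2% of those 11425 genes lay lower. In replicate 1 a peak of 1855 bp lay over the 5′ end, from 15940118 to 15941972, with a fold of 4.25 and 44 fragments (32.0 to 59.1), and no replicate 2 peak touched it. What the replicates shared was a small intronic peak whose summit was the same base in both, 2541 bp into the gene. It had a fold of 3.57 and 21 fragments in replicate 1, and a fold of 4.10 and 15 fragments (8.40 to 24.7) in replicate 2. The member count for MYCN in both replicates thus rests on that intronic peak. Both it and the peak over the 5′ end lie within 3000 bp of a start of MYCNOS, so neither can be assigned to MYCN alone. Of all genes whose strongest promoter peak of replicate 1 had a percentile from 50 to 60, 27.9% had no promoter peak in replicate 2.

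MYCL (ENSG00000116990.12, chromosome 1, 39895428 to 39902256, minus strand) encodes the third MYC paralogue, first known from lung cancer. Its 5′ end had a peak in both replicates, with summits 357 and 403 bp before the canonical start, outside the gene. The fold was 5.92 in replicate 1, with 56 fragments (42.3 to 72.7), and 4.18 in replicate 2, with 22 fragments (13.8 to 33.3). The percentiles of 84.9 and 48.3 made this the widest difference of the members, and 11.2% of genes differed by as much. Peaks over the 3′ UTR were weak in both replicates: their folds were 2.91 and 3.30, at percentiles 16.3 and 19.2. Their summits were 661 bp apart. They lie within 3000 bp of a start of MYCL-AS1 and cannot be assigned to MYCL alone.

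MAX (ENSG00000125952.21, chromosome 14, 65006174 to 65102695, minus strand) is the obligate partner of MYC and a partner of the MXD proteins. Its promoter peak spanned 65101576 to 65103295 in replicate 1 and 65101933 to 65103049 in replicate 2, with summits 71 bp apart and 416 and 345 bp before the canonical start. The fold was 5.2 with 61 fragments (46.7 to 78.4) in replicate 1 and 4.13 with 24 fragments (15.4 to 35.7) in replicate 2. At 62.0 ± 21.2 (SD, n = 2) MAX stood above 29.5% of those 11425 genes. The body of MAX, the longest of the 10 genes, held 4 peaks in each replicate, of which 2 were shared. The shared intronic peaks lay 47.7 kb from the start, with folds of 5.18 and 4.43, and 57.9 kb from it, with folds of 3.23 and 3.65. Both lie past the end of the canonical MAX transcript, at 65075127, in a part of the gene that other annotated transcripts cover. The first of them also lies within 3000 bp of a start of FNTB, a neighbouring gene, and the second within 3000 bp of a start of MIR4706. Neither can therefore be assigned to MAX alone.

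MNT (ENSG00000070444.15, chromosome 17, 2384073 to 2401104, minus strand) encodes the most widely expressed of the MAX-bound repressors. Nearly the whole gene was under peaks in both replicates. In replicate 1 a single peak of 18693 bp, from 2384309 to 2403001, spanned it and reached 1897 bp upstream, with a fold of 22.98 (rank 122 of 97162), 228 fragments (199 to 260) at the summit and a control level of 8.18. In replicate 2 the same stretch was divided into 3 peaks. The one at the 5′ end, from 2395423 to 2403289, had a fold of 12.2 (rank 522 of 68532), 120 fragments (99.5 to 143) and a control level of 8.91, and the other two had folds of 5.33 and 4.87 towards the 3′ end. The summits at the 5′ end were 470 bp apart, 347 and 817 bp before the canonical start. The replicate percentiles of 99.9 and 99.2 differed by 0.636 points, and MNT stood above 96.95% of those 11425 genes. Peaks covered 91.5% of the gene and its 3000 bp on either side in replicate 1 and 88.7% in replicate 2.

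MXD3 (ENSG00000213347.11, chromosome 5, 177301461 to 177312757, minus strand), an MXD repressor linked to cycling cells, also had broad peaks, with 72.6% of the gene and its 3000 bp on either side covered in replicate 1 and 66.2% in replicate 2. Its promoter peak was 6639 bp long in replicate 1 and 6669 bp in replicate 2, and the ends of the intervals differed by 15 and 45 bp. The fold was 16.3 with 156 fragments (132 to 182) in replicate 1 and 9.26 with 55 fragments (41.4 to 71.6) in replicate 2. MXD3 stood at 98.5 ± 1.504 (SD, n = 2), above 90.5% of genes. A broad peak also covered its 3′ part in both replicates, with folds of 11.2 and 8.25 at percentiles 98.3 and 95.8, but it lies within 3000 bp of starts of PRELID1 and RAB24 and cannot be assigned to MXD3 alone.

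MXD4 (ENSG00000123933.17, chromosome 4, 2247432 to 2262109, minus strand), an MXD repressor linked to cells leaving the cycle, was covered over most of its length by many moderate peaks. Over the gene and its 3000 bp on either side, peaks covered 86.9% in replicate 1 and 72.4% in replicate 2. At the 5′ end the peaks ran from 2261868 to 2264257 and from 2262046 to 2264240, with summits 31 bp apart, folds of 5.99 and 5.68, and 90 (72.4 to 111) and 49 (36.3 to 64.8) fragments. The strongest promoter peak by the rule was this one in replicate 1 (percentile 85.6), and in replicate 2 an internal one with a fold of 5.82 (percentile 82.7). Within the body the replicates ranked the same ground differently: the stretch from 2254811 to 2261498 had a fold of 2.57 (percentile 7.95) over a control level of 18 in replicate 1, and the overlapping peak from 2254788 to 2259999 had the 5.82 of replicate 2 over a control level of 5.01.

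MXD1 (ENSG00000059728.11, chromosome 2, 69897688 to 69942945, plus strand) encodes the founding MXD repressor, known from differentiating cells. Its most upstream annotated start had no peak in either list, and the promoter peaks lay at the canonical start at 69915109. They had folds of 5.47 with 88 fragments (70.6 to 108) over a control level of 14 in replicate 1, and 7.31 with 47 fragments (34.5 to 62.5) over 5.57 in replicate 2. MXD1 was the 1 gene of the 9 with a percentile over 10 points higher in replicate 2, 92.9 against 80.5, and 40.3% of genes differed by as much. A downstream pair of peaks was also shared, an intronic one about 17 kb past the canonical start with folds of 4.86 and 4.58, and one near an internal start 22.3 kb past the canonical start with folds of 4.48 and 6.10.

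MXI1 (ENSG00000119950.21, chromosome 10, 110207605 to 110287365, plus strand) encodes another MXD-family repressor. In replicate 1 it had 5 promoter peaks and 1 gene-body peak, and in replicate 2 it had 0 peaks over the gene or within 3000 bp of its starts. The strongest, from 110225808 to 110227640, lay at an internal start 18.9 kb into the gene, with a fold of 6.71, a percentile of 90.2 and 79 fragments (62.5 to 98.5) over a control level of 10. Among the genes whose strongest promoter peak of replicate 1 had a percentile from 90 to 95, 66 of 1694 (3.90%) had no promoter peak in replicate 2. The nearest peak of replicate 2 was 17.1 kb from the gene. In the 1 Mb on either side of MXI1, replicate 1 had 21 peaks and replicate 2 had 7, a ratio of 3.0, where the whole lists stood at 1.42. The ratio for the other 9 members lay between 1.21 (MXD4) and 2.5 (MYC). The part of depth in this absence was not tested.

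MLX (ENSG00000108788.12, chromosome 17, 42567072 to 42573239, plus strand), the partner of the glucose-sensing factors, had a promoter peak of 3523 bp in replicate 1 and of 4819 bp in replicate 2. The folds were 8.86 with 76 fragments (59.9 to 95.1) and 8.71 with 41 fragments (29.4 to 55.6). Percentiles of 96.3 and 96.7 differed by 0.437 points, the smallest difference of the 9 members, and MLX stood above 82.0% of those 11425 genes. The summits were 892 bp apart, 579 bp after the canonical start in replicate 1 and 313 bp before it in replicate 2. Both peaks also reach to within 3000 bp of a start of COASY, the gene just upstream.

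**Figure D4:**
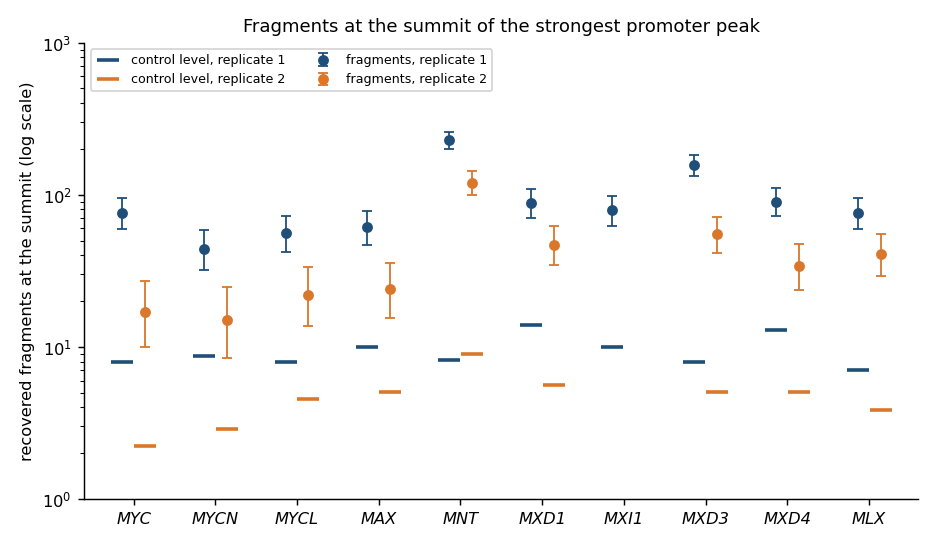
Fragments recovered at the summit of the strongest promoter peak of each member (points, with 95% exact Poisson intervals, log scale) and the control level at the same base (dashes), for replicate 1 (blue) and replicate 2 (orange). MNT has the most in both replicates (228 and 120), and in replicate 2 MYC and MYCN rest on 17 and 15 fragments.

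Fragment numbers set how firmly each level is known. The summits of the strongest promoter peaks carried between 44 (MYCN) and 228 (MNT) fragments in replicate 1 and between 15 (MYCN) and 120 (MNT) in replicate 2. Over all member peaks the lowest were 18 and 11 fragments, both at MXD1. The intervals of MNT did not overlap those of any other member in either replicate, while in replicate 2 those of MYC, MYCN, MYCL and MAX all overlapped each other. These intervals do not include the control level, which ranged from 2.23 (MYC) to 5.05 (MAX) at the 4 summits, so they do not bear on the order by fold.

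Because the distal enhancers of MYC lie far from the gene, peaks of both lists were gathered in the 2 Mb on either side. There were 18 in replicate 1 and 6 in replicate 2, and they formed 3 regions shared by both: the MYC 5′ end and 2 weak regions inside the non-coding gene PVT1. The window was sparse. Over protein-coding genes the same span held a median of 181 and 116 peaks, and 16.9% of genes in replicate 1 and 11.5% in replicate 2 had fewer than MYC. On the upstream side there were 0 peaks in both replicates, which held for 765 of the 20033 genes (3.82%), with medians of 69 and 42 over all genes. The upstream side includes the genes LRATD2 and POU5F1B, which had 0 peaks.

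Downstream there were 16 peaks in replicate 1 and 4 in replicate 2, of which 12 and 4 had their summits inside PVT1, which begins 58.3 kb from the MYC start and ends at 451 kb. PVT1 is a non-coding gene often amplified together with MYC. The shared PVT1 regions lay 124 kb from the MYC start, with folds of 3.61 and 3.88 on 28 and 18 fragments, and 313 kb from it, with folds of 4.07 and 3.70 on 21 and 13 fragments. Downstream peaks had percentiles between 0.564 and 63.9 in replicate 1 (median 38.6) and between 33.0 and 56.6 in replicate 2 (median 43.7), all below the peak at the MYC 5′ end of the same replicate.

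Beyond 1 Mb there were 3 peaks in replicate 1 and 0 in replicate 2. The first, 1434 kb downstream inside the non-coding gene CCDC26 (chromosome 8, 129170131 to 129170600), had a fold of 2.64 at a percentile of 9.23, on 39 fragments over a control level of 13. The others, at 1856 kb and 1992 kb, had folds of 2.96 and 2.58. A NOTCH1-bound MYC enhancer known in T-ALL also lies more than 1 Mb downstream of the gene. Its interval was not used here, and no peak of replicate 2 lay in that distance range, so no shared peak bears on it.

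**Figure D5:**
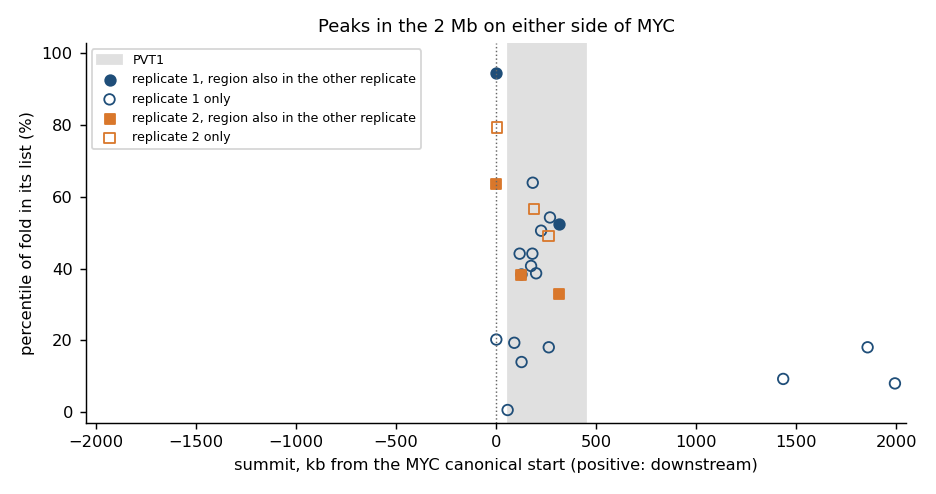
Peaks in the 2 Mb on either side of MYC, with distance of the summit from the MYC canonical start in kb (positive values downstream) against the percentile of fold in its own list; filled symbols mark regions found in both replicates, open symbols 1 replicate, circles replicate 1, squares replicate 2 and grey shading PVT1. There are 0 peaks upstream, most downstream peaks lie over PVT1, the 3 farthest come from replicate 1, and the filled circle at 124 kb lies under the square there.

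NUDT21 acts on RNA near polyadenylation sites, where it contacts UGUA, so the gene ends were described apart. MNT had a gene-end peak in both replicates, at 2382680 to 2383772 and 2383040 to 2383957, with summits 870 and 743 bp past the annotated end. Its folds were 7.41 and 7.80 and its percentiles 93.1 and 94.7, on 46 (33.7 to 61.4) and 30 (20.2 to 42.8) fragments. These peaks also lie within 3000 bp of a start of ENSG00000262456, so they cannot be assigned to the MNT end alone. MXD4 had one too, with folds of 4.71 and 3.41, but the summits lay 935 bp past the end in replicate 1 and 1015 bp before it in replicate 2. Its peak lies within 3000 bp of starts of HAUS3 and POLN in replicate 1, and of the non-coding MIR4800 in both. Of the summits, those of MNT are therefore the ones past the end in both replicates. No other member had a gene-end peak in either list.

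The DNA letters of the UGUA motif, TGTA on the gene strand, were counted in the last 100 bases of each canonical transcript. All 10 members held TGTA there, where 51.9% of the 20033 genes did, and 9 of 10 held a polyadenylation signal, AATAAA or ATTAAA, against 79.5%. The canonical ends of MAX and MXD3 lie 69.0 kb and 5749 bp before the last base of the annotated gene. The sites of the 2 members with gene-end peaks are shown, each as 30 bases on the gene strand with TGTA in capitals.

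MNT, chr17:2384117-2384146, minus strand: tgaatactatccaTGTAataagcacttgcc
MXD4, chr4:2247445-2247474, minus strand: gtccttatgtcatTGTAatataaatacaga

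The MNT motif begins 61 bases and the MXD4 motif 30 bases before the transcript end. The other 8 members held the motif without a gene-end peak in either list, although at MXD3, whose canonical transcript ends inside the gene, a peak lay over that end with a summit within 1000 bp in both replicates. The letters describe RNA sites, CUT&Tag reads DNA, and the relation of the motif to the peaks was not tested.

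The wider network was described from lists of its known partners. All 3 other helix-loop-helix partners had promoter peaks in both replicates: MGA, a very large MAX partner, with folds of 7.38 and 6.12 (percentiles 92.9 and 85.6), MLXIP with 9.72 and 8.37 (97.3 and 96.0), and MLXIPL with 4.15 and 3.84 (54.9 and 36.9). With the canonical start alone, MLXIP had percentiles of 90.5 and 78.3 and MLXIPL of 52.7 and 28.5. Of 16 cofactors and corepressors 15 had promoter peaks in both replicates. The strongest were HCFC1, a host-cell-factor scaffold that binds MYC, with folds of 21.3 and 14.7, and HDAC1, a histone deacetylase of the corepressor complexes, with 22.3 and 11.7. Its paralogue HDAC2 had one in replicate 1 only, with a fold of 2.42 (percentile 4.90).

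Of 10 regulators of MYC protein stability, 9 had promoter peaks in both replicates, among them the kinase GSK3A with folds of 13.8 and 12.3. The deubiquitinase USP28 had one in replicate 1 only, with a fold of 2.70. Over the 29 partner genes together, 27 had promoter peaks in both replicates against the 57.0% of all protein-coding genes, and their median percentiles were 95.8 and 93.6. The 10 members at 87.9 and 82.7 lay between these partners and all genes. Promoter peaks were common in both lists, and whether these counts set the network apart was not tested.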

How the data were processed

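CUT&Tag libraries of NUDT21 from 2 replicates of J.gamma1 cells were used. Per the methods and the submitters' processing notes, the authors trimmed reads with fastp, aligned them to hg38 with Bowtie2 2.2.5, removed duplicates with Picard and called peaks in each replicate separately with MACS3 3.0.1. A control library and the peak threshold are not given in the sources used here. The deposited lists gave the fold at the summit (a ratio), its −log10 p, its −log10 q, the summit offset and a score that the authors' caller derives from the −log10 q and that was not used. These values rank peaks within 1 list.

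Genes and transcripts came from GENCODE 44. On the main chromosomes 0 peaks ran past a chromosome end of the hg38 genome used. Fragments and control level at each summit were solved from the deposited fold and −log10 p (fold as pileup plus 1 over background plus 1, p as a Poisson tail), which succeeded for 99.9% of the peaks in each list, with a pileup scaling of 0.921 in replicate 1. Tested on simulated data, 99.7% of 19985 peaks with whole-number pileups and 98.4% of 19010 with scaled pileups were recovered. Intervals are exact Poisson, at 95%.

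Members were described by count and percentile beside all protein-coding genes, with no test. Named genes were the 10 members, the 3 other partners, and of each further list those lacking a promoter peak in a replicate and the 2 with the highest mean percentile, besides the shared regions near MYC. One gene that this rule names is not reported here. The members and lists were chosen with earlier results of these data known. Shared meant an overlap of at least 1 bp. Alternatives changed the promoter distance, the starts, the gene-end distance, the peak filter, the ranking, the overlap and the motif window. Python 3.11.15, numpy 2.4.6, pandas 2.3.3, scipy 1.17.1 and matplotlib 3.10.9 were used. Promoter sequences came from RefSeq.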

Additional observations from a re-analysis of the deposited data

How the results depend on the processing

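No paired analysis was possible because the 2 replicates form 1 group and no groups are compared. Of the 62 values for the counts and medians under an alternative, 49 stayed within 1.5 times the count or 1 SD. Of the 85 for single members, 83 did. Much of this was fixed in advance and does not measure stability. Leaving out 1 replicate moves a mean of 2 by less than its SD, whatever the values. The peak filters kept the percentiles of the full lists, so a member's value could change only if its strongest peak was lost. The alternative with the canonical start was chosen after seeing the data. With the 10000 peaks of the highest −log10 p in each list, 5 members had a promoter peak in both replicates (4866 genes in all), with a median percentile of 93.5 in place of 85.3, 1 had a gene-body peak, 1 a gene-end peak, and 0 regions near MYC were shared. With a −log10 q of at least 5, 8 members had a promoter peak in both replicates (9891 genes in all). MYCN was the member lost. At this setting 3 members had a gene-body peak in both. Ranked by −log10 p, the median percentile was 95.1, with MXD1 at 95.7 and MXD4 at 95.2. The median of all protein-coding genes is not given for this ranking or for the 10000 peaks. Neither rise therefore sets the members apart. With summits alone, 1 gene-end peak was shared. The shares of all protein-coding genes with gene-body and gene-end peaks under these settings are not given. Whether the members lost more of these peaks than other genes did is therefore not known. Near MYC, leaving out 1 replicate gave 6 to 18 regions. CACGTG was held by 2 members within 200 bp and 6 over the whole peak. The cause of these changes was not tested. The low fragment numbers of replicate 2 (15 to 25 at MYC, MYCN, MYCL and MAX) limit what its ranks can show.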

Other observations

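Of 22 known MYC target genes, 19 had promoter peaks in both replicates, against 57.0% of all protein-coding genes. Their strongest promoter peaks had median percentiles of 91.9 and 84.5, beside 82.2 and 77.9 for all genes with one. A neighbouring pair of targets shared the same strongest peak in each replicate, so that peak entered the count and the medians for each. Gene-end peaks in both replicates were present at 11 of the 22, against 20.1% of all genes and 2 of the 10 members. By the strongest promoter peak, the highest were EIF4A1, the RNA helicase of translation initiation, and NCL, the nucleolar protein nucleolin. The folds were 40.8 and 40.3 for EIF4A1 and 16.6 and 17.97 for NCL. These peaks were not within 3000 bp of the canonical starts. With the canonical start alone, the percentiles were 99.84 and 99.82 for EIF4A1 and 94.2 and 94.7 for NCL. Some other targets stood above NCL there. CCND2 (cyclin D2), TFAM (a mitochondrial DNA-binding protein) and RRS1 (a ribosome assembly factor) had promoter peaks in replicate 1 only, with folds of 3.81, 2.58 and 3.69.

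Promoter peaks were present in both replicates at 9 of 12 T-cell markers, 4 of 6 B-cell markers and 5 of 6 myeloid markers, beside the 57.0% of all protein-coding genes. Among the markers with a promoter peak, the median percentiles in replicates 1 and 2 were 80.9 and 93.2 for T-cell, 77.7 and 69.6 for B-cell and 59.0 and 64.0 for myeloid markers. These are lists of 6 to 12 genes, and the labelled cell type was not tested with them. A percentile over 90 in both replicates was reached by 3 of 10 members, 10 of 16 cofactors and corepressors, 8 of 22 target genes, 3 of 12 T-cell markers, 1 of 6 B-cell markers, 0 of 6 myeloid markers and 16.95% of all protein-coding genes.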
